A study of Drosophila melanogaster with 8 samples.

Results

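Of 1796 genomic regions with more H3K9me2 in control siblings than in NelfA*/+ flies, 1009 overlapped a region that both genotypes held in common, and these 1009 regions are described here. They were chosen by measured values: the authors' call of higher H3K9me2 in control siblings, and the sharing of at least 1 bp with 1 of 20712 common regions. The remaining 787 control-higher regions touched no common region. The deposited lists hold 31871 regions in all, of which the control-higher regions made up 5.64%. Among 6559 differential regions that overlapped a common region, 15.4% were control-higher, the other 5550 being higher in NelfA*/+ flies. The choice of regions used both of these contrasts, so nothing is read from these shares.

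H3K9me2, histone H3 carrying 2 methyl groups on lysine 9, is placed by histone methyltransferases such as Su(var)3-9, Eggless and G9a, is bound by HP1 proteins, and marks the compact, gene-poor heterochromatin around centromeres and on Y. In flies this chromatin consists largely of tandemly repeated satellite DNA and of transposable elements (TEs), and it also holds a set of genes with very long introns.

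The ChIP-seq libraries came from the heads of adult males aged to Day 50. NelfA*/+ flies (labelled +/+; +/NELF-A*) carried 1 copy of the KG09483 P-element insertion in Nelf-A, which encodes a subunit of the complex that pauses RNA polymerase II, and were compared with control siblings without it (labelled +/+; +/+) from the same backcross to w1118. Each genotype had 2 H3K9me2 libraries (antibody ab1220, 100 heads per replicate) and 2 input libraries, 8 in all. Whole heads mix neurons, glia, fat body and other cells, and the lists hold no expression values by which the tissue label could be checked. In such bulk tissue, fewer cells that carry the mark at a site and less of it per cell cannot be told apart. The lists give positions and 1 score per region whose scale is not named, with no value per library. No spread between replicates, depth or interval can therefore be given, and regions of 1 pair of genotypes are not replicates, so every comparison between sets of regions below is a description without a test. Positions are on build BDGP6 (dm6), counted from 1.

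The following regions show how the listed sequence looked. Capitals mark the bases that a common region also covered, and all other bases were listed as control-higher only. All are given on the forward strand of the build. The first group holds the 4 regions with the highest score among those named below that are no longer than 300 bp, on 3R, 3L and Y.
Pzl intron, chr3R:2556995-2557236: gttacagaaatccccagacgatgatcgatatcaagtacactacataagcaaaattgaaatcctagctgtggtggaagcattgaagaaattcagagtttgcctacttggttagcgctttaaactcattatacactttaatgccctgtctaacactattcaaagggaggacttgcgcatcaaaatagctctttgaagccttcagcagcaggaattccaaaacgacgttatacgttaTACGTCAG
Myo81F intron, chr3R:2475573-2475872: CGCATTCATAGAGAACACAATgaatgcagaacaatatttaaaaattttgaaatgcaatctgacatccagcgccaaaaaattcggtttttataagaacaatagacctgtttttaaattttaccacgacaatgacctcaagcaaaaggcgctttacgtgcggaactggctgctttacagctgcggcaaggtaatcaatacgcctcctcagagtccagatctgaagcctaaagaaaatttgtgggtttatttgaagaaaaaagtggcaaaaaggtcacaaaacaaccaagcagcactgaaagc
Intergenic, chr3L:24892094-24892344: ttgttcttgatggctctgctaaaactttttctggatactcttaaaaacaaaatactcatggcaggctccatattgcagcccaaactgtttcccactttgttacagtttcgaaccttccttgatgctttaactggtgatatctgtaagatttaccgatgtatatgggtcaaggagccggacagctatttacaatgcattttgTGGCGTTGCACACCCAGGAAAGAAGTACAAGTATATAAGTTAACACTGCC
Intergenic, chrY:1915804-1916012: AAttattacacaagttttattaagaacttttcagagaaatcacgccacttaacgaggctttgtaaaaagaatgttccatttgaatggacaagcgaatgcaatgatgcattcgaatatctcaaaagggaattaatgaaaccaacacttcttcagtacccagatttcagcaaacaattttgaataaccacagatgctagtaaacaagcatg
In each of these the common bases stood at 1 end only: 8 bp of 242 in the Pzl intron, 21 bp of 300 in the Myo81F intron, 50 bp of 251 on 3L and 2 bp of 209 on Y. The scores were 4.43, 4.36, 4.21 and 4.19 in that order. The first 3 had a GC content of 40.1%, 39.0% and 40.2%, and the region on Y had 34.0%.

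The next pair is shown because it belongs to the tandem repeat that recurred most often among the 1009 regions. The first lies on an unlocalised scaffold of X named 211000022278625 and the second near the centromeric end of 3L.
X scaffold, bases 1485 to 1745: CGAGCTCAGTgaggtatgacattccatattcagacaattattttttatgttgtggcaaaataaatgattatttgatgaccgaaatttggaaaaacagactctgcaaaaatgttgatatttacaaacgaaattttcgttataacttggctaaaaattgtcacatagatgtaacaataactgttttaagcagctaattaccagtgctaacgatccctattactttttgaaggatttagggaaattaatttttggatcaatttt
Intergenic, chr3L:26945554-26945847: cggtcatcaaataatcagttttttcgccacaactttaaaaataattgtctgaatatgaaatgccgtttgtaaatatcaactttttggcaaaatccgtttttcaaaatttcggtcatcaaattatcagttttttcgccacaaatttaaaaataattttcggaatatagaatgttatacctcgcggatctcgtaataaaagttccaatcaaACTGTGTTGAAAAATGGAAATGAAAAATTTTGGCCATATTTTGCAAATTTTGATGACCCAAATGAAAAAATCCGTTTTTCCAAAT
The X scaffold region scored 5.33, had a GC content of 29.9% and matched the repeat unit at 97.7% of aligned bases. The 3L region scored 3.72, had a GC content of 29.3% and matched the same unit at 86.7%. Both were chosen for display after their values were seen.

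The overlap with common regions was mostly partial. The median region was 274 bp long (quartiles 236 and 343 bp, range 200 to 947 bp) and shared a median of 132 bp with common regions (quartiles 56 and 240 bp, range 2 to 642 bp). Of the 307 kb covered, 156 kb (51.0%) were also listed as common. A base could thus be listed both as control-higher and as common. At least 50% of the length was shared in 471 regions (46.7%), and at most 100 bp in 415 (41.1%).

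The overlap took 5 arrangements. In 662 regions (65.6%) a common region covered 1 end, the end with the lower coordinate in 312 and the higher in 350. A further 208 (20.6%) lay wholly inside a common region, and 109 (10.8%) had a common region at both ends. In 27 the common region lay wholly inside the control-higher one, and in 3 it lay inside and at an end. A single common region was touched by 897 regions, and 112 touched 2. The score went with the arrangement: its median was 2.01 for a common region at 1 end but 1.49 (quartiles 1.35 and 1.64) for regions wholly inside a common region. Across all 1009 regions the median score was 1.86 (range 1.11 to 5.95), and it was 2.30 for the 787 control-higher regions that touched no common region. The score belongs to the same calls that, with the overlap, chose the regions, so nothing is read from these differences.

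**Figure D1:**
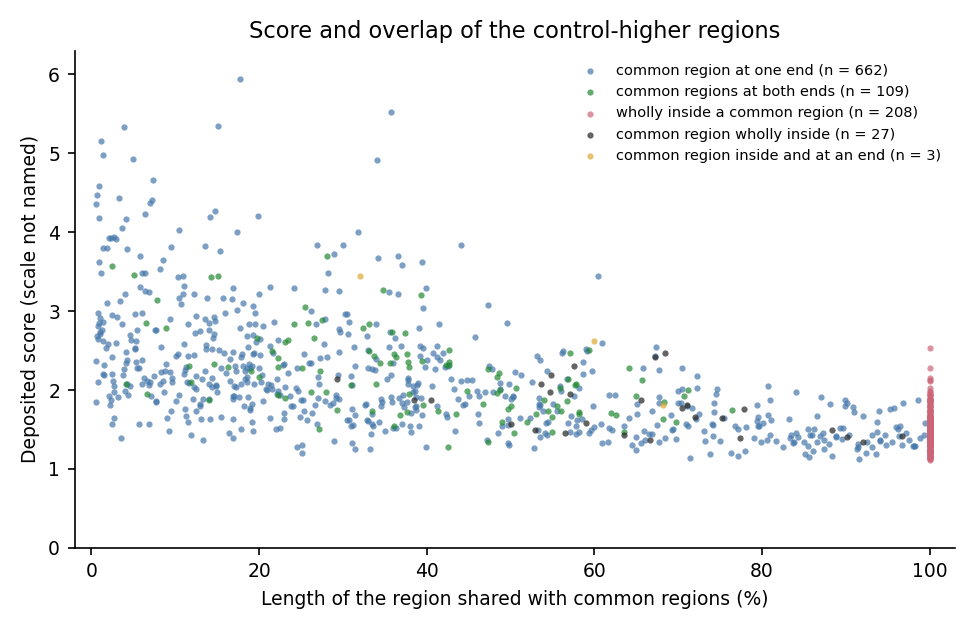
Deposited score (vertical axis, scale not named) against the percent of each region's length that common regions covered (horizontal axis). Each point is 1 of the 1009 control-higher regions, coloured by arrangement. The 208 regions wholly inside a common region stand at 100% with a median score of 1.49, and scores above 4 occur only where less than 40% of the length was shared. Score and overlap both come from the calls that chose the regions, so the plot is a description.

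The limit of 1 bp passed through a continuum. The smallest overlap was 2 bp, in 13 regions, and 59 shared no more than 10 bp. On the other side, 131 of the 787 regions outside lay within 10 bp of a common region, and the nearest abutted one with a gap of 0 bp.

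On the common side, 1077 common regions (5.20%) were touched, 44 of them by 2 control-higher regions and none by more. These common regions were longer, with a median of 496 bp (quartiles 314 and 835 bp) against 376 bp for the rest, and had a lower GC content (median 40.8% against 46.5%). A longer region meets any other more easily, and no allowance for length was made. Their median score was 0.316 against 0.262. A NelfA*/+-higher region also touched 157 of these 1077 (14.6%), against 5975 of all 20712 common regions (28.8%). The tandem repeat described below was not set apart in these shares. It had 1.32 overlapping NelfA*/+-higher regions per 100 common regions, against 27.7 in other sequence. Within 1 kb of a NelfA*/+-higher region lay 315 of the 1009 regions (31.2%) and 215 of the 787 outside (27.3%). Of the 1009, the share was 2.15% (5 regions) in the tandem repeat and 39.9% (310) in the rest, and the 787 outside were not split in this way. On sequences without any NelfA*/+-higher region lay 250 of the 1009. The nearest gap to a NelfA*/+-higher region was 49 bp.

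The first feature that the choice of regions did not use was sequence. Of the 1009 regions, 329 (32.6%) lay on 256 scaffolds (median length 2092.5 bp, range 1005 to 88768 bp) that the assembly does not place within a chromosome. The same share was 24.0% for control-higher regions outside common ones, 12.0% for NelfA*/+-higher regions overlapping common ones and 15.5% for common regions. Without the tandem repeat described next it was 14.2% for the regions described here, and 9.06%, 11.9% and 12.9% for the other sets in that order. Scaffolds assigned to X held 197 of the 1009, and the assembled X only 24. Unplaced scaffolds held 82, scaffolds of Y held 34, and the scaffold class given as X or Y, which includes the ribosomal DNA sequence, held 7. Relative to common regions, scaffolds of X had 22.3 per 100 and the assembled X had 1.95, the lowest value among the major chromosomes.

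When the scaffolds were shifted against themselves, those of X matched best at a shift of 359 bp, where a median of 49.5% of bases agreed, against 27.0% on other scaffolds. The clearest array, a scaffold of X of 1529 bp, matched itself at 97.6% of bases at that shift, and its unit had a GC content of 29.5%. Of the 256 scaffolds, 80 matched at 60% or more at a shift within 9 bp of this period, and 72 of these belonged to X. A satellite with this unit length is known from the X heterochromatin next to the centromere, where it forms one of the largest repeat blocks of the fly genome, and related repeats are known from 3L.

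**Figure D2:**
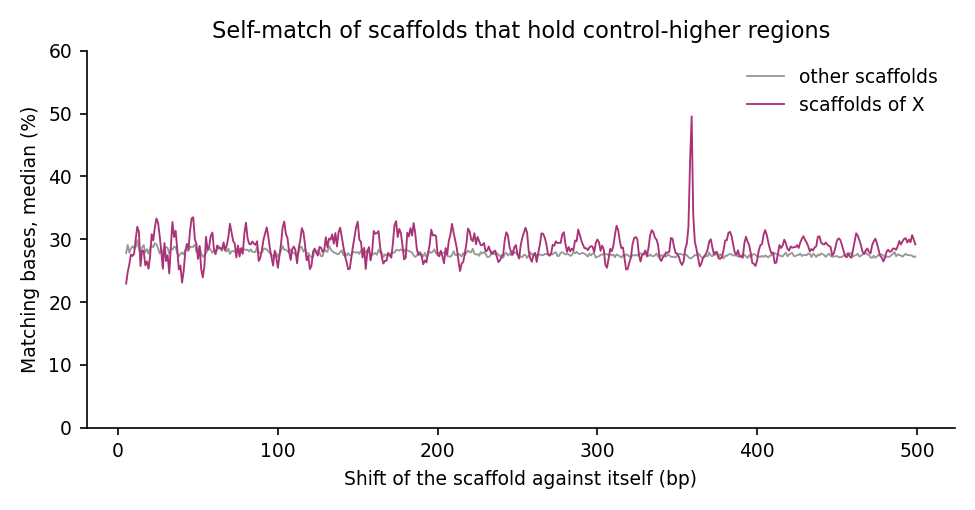
Percent of bases that match when a scaffold is shifted against itself (vertical axis, median over scaffolds) by the shift in bp (horizontal axis), for scaffolds of X and other scaffolds that hold at least 1 of the 1009 regions. Scaffolds of X show a single tall peak, at 359 bp (49.5%), and the others stay near 27% to 30%.

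Regions were counted in the repeat family when at least 50% of their length aligned to this unit. The family held 233 of the 1009 regions (23.1%) on 170 scaffolds and 3L, and 165 of them aligned over their whole length. No region of the 1009 aligned over a part smaller than 50%. The family made up 17.3% (136) of control-higher regions outside common ones and 3.30% (683) of common regions. It made up 0.162% of NelfA*/+-higher regions overlapping common ones, which is 9 regions, and 8 more lay outside common regions. In the family, 96.3% of the differential regions that overlapped a common region were control-higher (233 against 9), whereas in all other sequence the share was 12.3% (776 against 5541). The unit was sought only on scaffolds that hold at least 1 of the 1009 regions. The family was thus picked from control-higher sequence, and no unit was sought on scaffolds that hold only other regions. Its share is a description and not a test. Put per 100 common regions, the family had 34.1 control-higher and 1.32 NelfA*/+-higher regions, and other sequence had 3.87 and 27.7.

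By place, 185 regions of the family lay on 145 scaffolds of X, 33 on unplaced scaffolds, 14 on 3L and 1 on a scaffold of the chromosome 3 centromere. Identity to the unit had a median of 95.9% on the scaffolds of X (range 77.4% to 98.6%), 85.7% on unplaced scaffolds (77.0% to 90.6%) and 86.5% on 3L (82.5% to 88.4%). The unit was itself taken from a scaffold of X, which favours high identity there, so nothing is read from the order of places. The 14 regions on 3L spanned 2478 kb, from chr3L:24594698 to chr3L:27072553, and scored between 1.29 and 3.72. They did not fill this span: none lay between chr3L:24678841 and chr3L:26879794. The split between genotypes varied with place. Among differential regions of the family that overlapped a common region, 185 against 1 were control-higher on scaffolds of X (99.5%), 33 against 5 on unplaced scaffolds (86.8%) and 14 against 3 on 3L (82.4%). Counting also those outside common regions, 3L held 7 of the 17 NelfA*/+-higher regions of the family, unplaced scaffolds 9 and scaffolds of X 1. Outside the family, scaffolds of X held 12 of the 1009 regions and 162 NelfA*/+-higher ones overlapping common ones, a control share of 6.90%. The highest score of all, 5.95, belonged to a region of the family on an unplaced scaffold, and the median score was 1.99 in the family and 1.82 outside it.

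**Figure D3:**
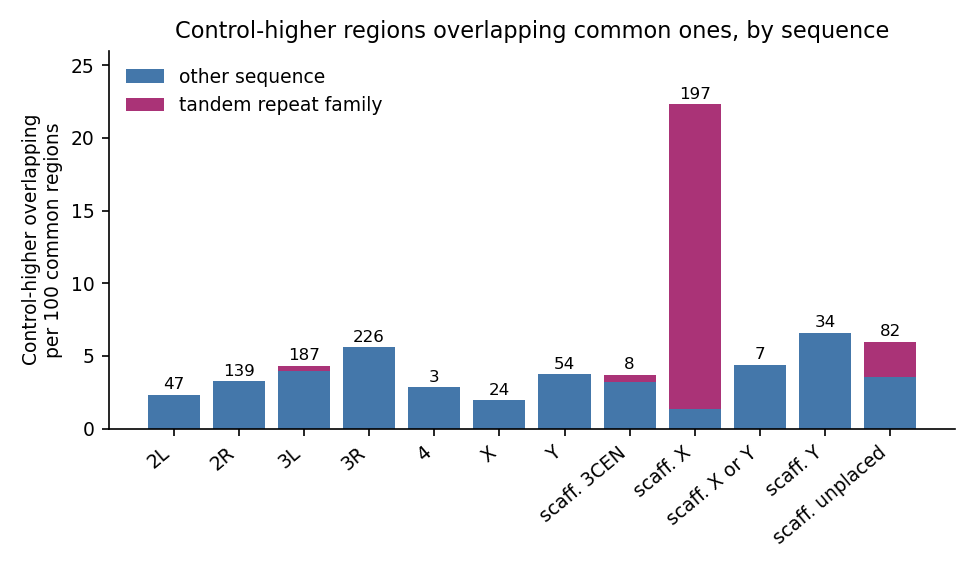
Number of control-higher regions that overlap common regions per 100 common regions (vertical axis) on each chromosome or class of scaffold (horizontal axis, classes with at least 100 common regions), split into the tandem repeat family and other sequence, with the number of regions above each bar. Scaffolds of X reach 22.3 per 100, nearly all from the repeat, and every other class stays below 7.

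The 233 regions align to 1 repeat unit at 77.0% to 98.6% identity and were not taken as independent measurements. The family takes in related repeats of other lengths. An unplaced scaffold of 2618 bp with 2 regions of the family, for example, matched itself best at a shift of 353 bp (67.1%). Grouping the 1009 regions by likeness (80% identity over 50% of the length) gave 644 groups, of which the largest held 232 regions, all of the repeat family. The number of repeat copies in each genotype, the input signal over them and the placement of reads that map to several copies were not analysed here, and their part in the split was not tested. The next group held 15 regions, 7 of them on 3R, and 7 overlapped annotated copies of 1360. A group of 7 regions outside the repeat family lay entirely on scaffolds of X. Simple satellites were absent as far as searched: 0 of the 1009 regions held 3 tandem copies of the unit AATAT on either strand, and the same held for the unit AATAG, the unit AAGAG, the unit AAGAC, the unit AATAC and the unit AACAC. Common regions held up to 28 (0.135%), for AAGAG. Control-higher regions outside common ones held up to 1 (0.127%), for AATAT, and NelfA*/+-higher regions overlapping common ones up to 3 (0.0541%), for AAGAC. With shares this low in every set, nothing is read from the 0.

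The 1009 regions were AT-rich. Their median GC content was 38.7% (quartiles 32.2% and 43.3%), close to the 38.9% of control-higher regions outside common ones and below the 50.5% of NelfA*/+-higher regions overlapping common ones and the 46.1% of common regions. The repeat family had a median of 30.2% and the 776 regions outside it a median of 40.7%, against 50.6% and 46.5% in the corresponding NelfA*/+-higher and common sets. Among differential regions overlapping common ones outside the family, 45.7% were control-higher below 30% GC (16 against 19), 40.1% from 30% to 35%, 38.0% from 35% to 40%, 23.1% from 40% to 45%, 8.62% from 45% to 50% and 2.02% above (61 against 2964). The family lay far higher at equal GC content, with 97.1% below 30% and 95.7% from 30% to 35%. Base composition thus moved with the direction of the difference in other sequence pooled over all places. These shares were not split by place, and the part of base composition in the calls was not tested.

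**Figure D4:**
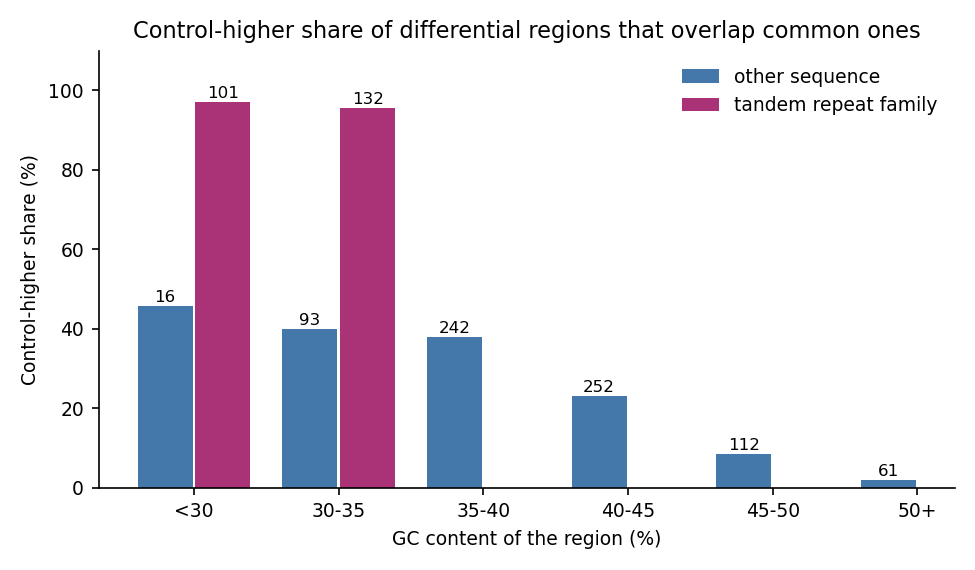
Percent of differential regions overlapping common ones that were control-higher (vertical axis) by GC content of the region (horizontal axis), for the tandem repeat family and for other sequence, with the number of control-higher regions above each bar. Outside the family the share falls from 45.7% to 2.02% as GC content rises, and the family reaches 97.1% and 95.7%.

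On the arms 2L, 2R, 3L, 3R and X lay 623 of the 1009 regions. Of these, 536 (86.0%) lay within 5 Mb of the centromeric end, against 62.5% of control-higher regions outside common ones, 63.9% of NelfA*/+-higher regions overlapping common ones and 63.0% of common regions. On each of the 5 arms the share of the 1009 was the highest of the 4 sets, while the order of the other sets varied. It was 96.5% on 3R (218 of 226), 84.2% on 2R (117 of 139), 81.3% on 3L (152 of 187), 79.2% on X (19 of 24) and 63.8% on 2L (30 of 47). Y held 54 regions and chromosome 4 held 3. Median scores were alike on these sequences, between 1.61 on X and 1.87 on 3L, and reached 1.97 on scaffolds.

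Gene bodies held 374 of the 1009 regions (37.1%), in 125 genes. The share was 44.0% for control-higher regions outside common ones, 51.6% for NelfA*/+-higher regions overlapping common ones and 48.3% for common regions. Outside the repeat family, which overlapped no annotated gene, the share was 48.2%. On the arms alone 56.8% lay in genes, against 59.3%, 59.8% and 59.0% in the other sets. Of the 354 regions in genes on the arms, 287 lay in introns and 67 (18.9%) touched an exon. The exon share of genic regions was 40.1% for control-higher regions outside common ones, 52.2% for NelfA*/+-higher regions overlapping common ones and 48.3% for common regions. Of the 354, 170 lay in the genes Myo81F and Pzl described below, where 1 region in each touched an exon. These genes held 1408 and 528 of the 9407 genic common regions on the arms. They thus weigh more on the 18.9%, and no exon share without them was computed. Within 1 kb of a transcription start lay 35 of all 623 regions on the arms (5.62%), against 15.3% of control-higher regions outside common ones.

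A pair of neighbouring genes at the centromeric end of 3R held 170 of the 374 genic regions (45.5%). Myo81F, an unconventional myosin gene of 1966 kb (chr3R:567076-2532932), held 123 regions, of which 1 touched an exon. Their scores ran from 1.14 to 4.91 with a median of 1.77. Pzl, which encodes a relative of the mechanosensitive channel Piezo (chr3R:2554162-3263582, 709 kb), held 47, again with 1 at an exon and with scores from 1.20 to 4.43. The genes were alike per length, with 6.26 regions per 100 kb in Myo81F and 6.63 in Pzl, and per 100 common regions, with 8.74 and 8.90. Both held more NelfA*/+-higher regions overlapping common ones, 412 and 154, so that 23.0% and 23.4% of such differential regions were control-higher. Over all sequence outside the repeat family this share was 12.3%, but it was 38.0% from 35% to 40% GC content and 23.1% from 40% to 45%. Both genes were picked for holding many control-higher regions, so nothing is read from their shares. Over the gene body the median GC content was 39.1% for the control-higher regions of Myo81F, 45.3% for the NelfA*/+-higher ones overlapping common regions and 41.1% for common regions.

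The other genes with the most regions were also large and close to centromeres. DIP-lambda, an immunoglobulin-superfamily receptor that pairs with Dpr proteins on neurons, held 19 (chr2R:326768-705848). Its partner family member dpr21 held 5. The transporter gene lovit, which loads histamine into vesicles of photoreceptors, held 15 (chr3L:25236940-25670980), and Snap25, a SNARE protein of synaptic vesicle fusion, held 7. CG17684 held 8 and CG41520 held 7. The flamenco piRNA locus on X, lncRNA:flam, from which small RNAs against gypsy-type retrotransposons are made, held 5, beside 10 NelfA*/+-higher and 67 common regions. The transporter gene MFS17, l(3)80Fg, nvd and spok held 4 each. Of these 13 genes only spok held more control-higher than NelfA*/+-higher regions overlapping common ones, 4 against 2. In the others the NelfA*/+-higher regions were more numerous, as they were over all sequence outside the repeat family (5541 against 776, 12.3% control-higher). The control-higher share was lowest in CG17684 (11.8%) and at least 12.5% in each of the others. The genes were picked for their number of control-higher regions, so nothing is read from these directions. Both spok, a cytochrome P450, and nvd, an oxygenase, act in ecdysone synthesis, and nvd had 4 against 13. Of the 125 genes, 96 held a single region.

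**Figure D5:**
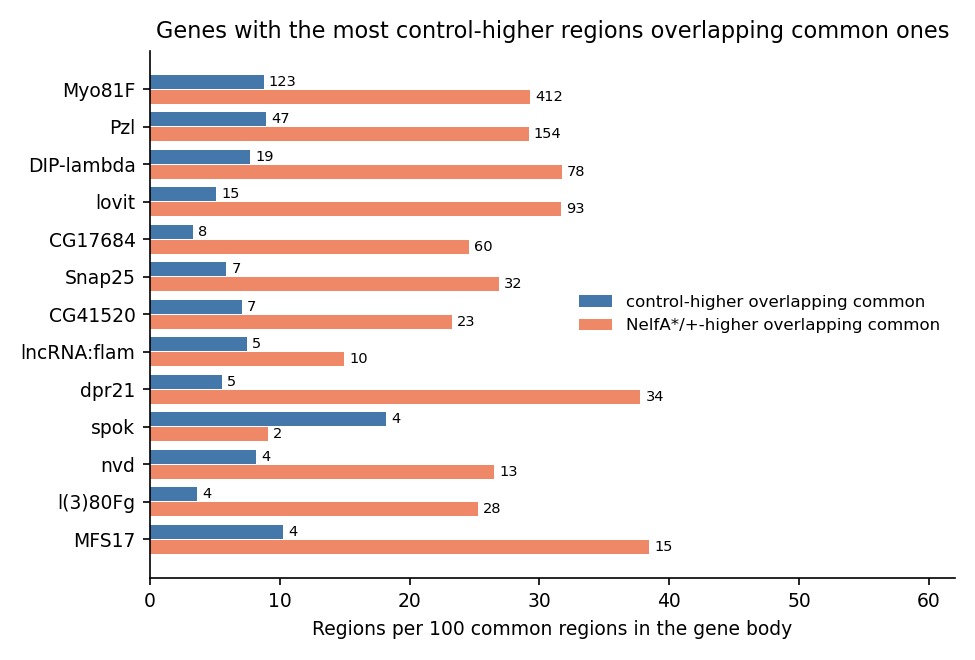
Control-higher and NelfA*/+-higher regions overlapping common ones, per 100 common regions in the gene body (horizontal axis), for the 13 genes with the most control-higher regions overlapping common ones, with the number of regions beside each bar. NelfA*/+-higher regions outnumber control-higher ones in every gene but spok (4 against 2), as they do over all sequence outside the repeat family (5541 against 776).

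Over the whole annotation, 125 of 18358 genes (0.681%) held at least 1 of the 1009 regions, and 1.76% had one in the body or within 5 kb. These shares take no account of gene length or place. Of 20 genes known to lie in or next to heterochromatin, 8 held at least 1 of the 1009 regions (147 regions in all, 123 of them in Myo81F), while 13 held a NelfA*/+-higher region overlapping a common one and 13 a common region. Besides Myo81F, Snap25 (7), lncRNA:flam (5) and nvd (4), these were AGO3, the piRNA-pathway Argonaute (3 regions beside 91 common ones), Parp1, a poly(ADP-ribose) polymerase (2 beside 70), Dbp80, an RNA helicase (2 beside 70), and Gprk1, a kinase of G protein-coupled receptors (1 beside 59). The genes rl, lt, scro, Nipped-A and Nipped-B had common regions and 0 of the 1009. No common region and 0 of the 1009 lay in the bodies of cta, RpL5, RpL15, RpL38, su(f), Yeti and Set1. In the 12 genes of H3K9 methylation and of methyl donor supply (egg, wde, Su(var)3-9, G9a, the HP1a gene, Su(var)3-7, HP1b, HP1c, Kdm4A, Kdm4B, Gnmt and Sam-S), 0 of the 1009 regions lay in the body or within 5 kb, and 1 gene, Gnmt, held a common region. With 1.76% of all genes that close to one of the regions, nothing about these 12 genes is read from the 0.

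Annotated TE copies overlapped 70 of the 1009 regions (6.94%), from 44 families. This share rests on the annotation, which holds only 7 of its 5896 copies on scaffolds and is not the one the authors used. When a region with any soft-masked base was counted in its place, which takes in satellites and simple repeats as well as TEs, the share was 84.3%, against 79.3% of control-higher regions outside common ones, 64.1% of NelfA*/+-higher regions overlapping common ones and 75.3% of common regions. By annotated copies on the named chromosomes the share was 10.3% (70 of 680), against 11.4% of control-higher regions outside common ones, 11.7% of NelfA*/+-higher regions overlapping common ones and 12.7% of common regions. The DNA transposon 1360 was touched most often, by 11 regions on 10 of its 493 copies, beside 20 NelfA*/+-higher and 230 common regions. The non-LTR retrotransposon Cr1a followed with 9 regions against 22. INE-1, the most numerous element of the annotation with 2235 copies, was touched by 5, and the LTR retrotransposon gypsy2 also by 5, on 3 copies. Rt1b and roo were touched by 3 each, and BS3, F, G5A, baggins, invader3 and jockey by 2 each. Over all 44 families, NelfA*/+-higher regions overlapping common ones were more numerous in 35, the counts were equal in 5, and control-higher regions were more numerous in 4 (Burdock, copia, gypsy7 and transib2, each with 1 against 0). Among the 12 families named above NelfA*/+-higher regions were more numerous in each, the control-higher share being lowest in Rt1b (3 against 56) and highest in BS3 (2 against 3). Over all sequence outside the repeat family they were also more numerous, 5541 against 776, a control-higher share of 12.3%. Of the 12 families, Rt1b, F and baggins lay below this share and the rest above it. The families were picked for holding control-higher regions, so no direction is read from these counts.

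The 10 regions with the highest score on the named chromosomes all had a common region at 1 end. Of these 1 lay on Y and the other 9 within 5 Mb of the centromeric end of 2R, 3L or 3R. The first (score 4.93) was chr3L:26611739-26612040, over a 1360 copy, 240 kb from the nearest gene. The Myo81F intron held chr3R:1919833-1920211 (4.91), which shared 129 bp with the common region chr3R:1920083-1920561. An intron of dpr21 held chr2R:3161653-3162001 (4.59), which shared 3 bp, and an intron of spok held chr3R:3337518-3337841 (4.48), which shared 2 bp. Printed above are the next 3, in Pzl, Myo81F and intergenic sequence of 3L, and the region on Y (4.19), which lay 31.0 kb from Ppr-Y. The last were chr3R:3298034-3298392 (4.16), 24.4 kb from spok, and chr3L:23793407-23793709 (4.05), over copies of Cr1a and G5A. Only 1 of the 10, that in Myo81F with 129 bp, shared more than 50 bp.

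The regions that shared the most bases lay on scaffolds and scored low. Nothing is read from the low scores, because overlap and score both come from the calls that chose the regions. The longest overlap, 642 of 646 bp, belonged to a region of the repeat family on an X scaffold (score 1.43). A second of the family was covered over all of its 584 bp (1.34). The other, on an unplaced scaffold and outside the family, was covered over 534 bp (1.24) and lay inside a common region of 1455 bp.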

How the data were processed

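H3K9me2 ChIP-seq was performed by the authors on Day 50 male heads of both genotypes, with 2 ChIP and 2 input libraries per genotype. Reads were mapped by the authors with STAR 2.5, end to end, against BDGP6. Peaks were called with MACS2 2.1.1 as broad peaks (extension 200 bp), and differential regions with bdgdiff (largest gap 100 bp, smallest length 200 bp), which uses no variance between replicates. The depths passed to bdgdiff, any pooling of replicates and the treatment of reads that map to several places are not given in the sources used here. The deposited value is 1 score per region, and the authors' files do not name its scale. The 3 lists carry condition numbers, which were tied to genotypes by the numbers of regions that the study states for each class. No columns of fold changes or p-values are held.

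Overlaps, GC content and soft-masked bases were computed with Python 3.11.15, numpy 2.4.6 and pandas 2.3.3, and figures with matplotlib 3.10.9. Genes and TE copies came from the Ensembl annotation and bases from RefSeq's copy of that assembly, in which all 1490 sequence names were found and 0 regions ran past an end. The tandem repeat was found by shifting against themselves only those scaffolds that hold control-higher regions overlapping common ones. It was assigned to regions of all lists with BLAST+ 2.17.0 (E-value limit 1e-05). The repeat search was added once the data were known. The overlap code was tested on 150 simulated regions with 0 wrong.

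The regions and gene lists were chosen with earlier results of these data known. Named were the 10 regions of highest score on the named chromosomes, the 3 sharing the most bases, the 10 genes and 10 TE families with the most regions (ties included), 2 gene lists in full, and of the named regions not on 2R and at most 300 bp long the first 4 by score. The top region of the repeat family, its top region on 3L and the X scaffold region shown were chosen after their values were seen. Alternatives varied the overlap, score, length, merging of neighbours, sequences, gene types and TE source. Neither input libraries nor signal tracks were used here.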

Additional observations from a re-analysis of the deposited data

How the results depend on the processing

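No paired analysis was possible because the lists carry no values per library. Of 52 alternative values, 23 stayed within the limits set for the same result and 29 moved. For the number of regions these limits were 673 and 1514. For shares and medians they were 95% intervals that count regions as independent draws, which they are not. The limits therefore only sort the values and measure no spread between libraries. Requiring 50% of the length to be shared left 471 regions, with a median GC content of 39.6% and 242 bp shared. Requiring 50 bp shared gave a median of 203 bp. Both demands on overlap raise the shared median by their own making, and any filter can only lower the number of regions. A score of at least 3 left 92 regions (GC content 33.1%, 25% in genes, 50% on scaffolds, 33 bp shared, 40.2% in the tandem repeat). A length of at least 400 bp left 142 (GC content 33.4%, 1.41% over TE copies, 27.5% in genes, 50% on scaffolds, 246.5 bp shared, 47.2% in the repeat). Without scaffolds and Y there were 626 (GC content 40.6%, 10.7% over TE copies, 57.0% in genes, 2.24% in the repeat). Merging neighbours within 1 kb gave a median of 172 bp shared and 20.2% in the repeat. Without the repeat family, an alternative chosen after seeing the data, the GC content was 40.7%, with 9.02% over TE copies, 48.2% in genes and 14.2% on scaffolds. Counting soft-masked bases as TEs gave 84.3% in place of 6.94%. Neither depth nor replicate spread is known, so how many of the 1009 calls would recur in further libraries cannot be given.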
